A study of Mus musculus with 4 samples.

Results

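HCF1 peaks that sat beside, but not on, sites of BAP1 or OGT were described in mouse bone marrow derived macrophages, primary cells grown from marrow in L929 conditioned medium. A flanking peak was an HCF1 peak on chromosomes 1 to 19 that shared no base with any BAP1-FLAG or OGT peak and lay at most 1 kb, edge to edge, from an HCF1 peak that did overlap one. There were 2308 of them among 30912 HCF1 peaks on these chromosomes, 7.47% (95% interval 7.18 to 7.77%), and among 31421 HCF1 peaks in all. An HCF1 peak with a BAP1-FLAG or OGT peak on it is called shared below, and 16801 peaks were of this kind. The members were chosen by the measured overlap and distance of the deposited peaks, so the lack of BAP1 and OGT on them and their nearness to a shared peak are not findings.

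Each protein was mapped by 1 library of chromatin immunoprecipitation and sequencing (ChIP-seq), with 1 further library of input DNA. BAP1 was pulled down by its FLAG tag in cells of genotype BAP1-3X Flag Tagged KI, a knock-in that places the tag on the mouse's own BAP1. HCF1, OGT and the input came from BAP1 WT cells, so BAP1 was mapped in other animals than HCF1. All cells were of strain C57BL/6 and received no treatment. The labels give no age for the mice. The name of the BAP1 list refers to wild-type macrophages, and the labels' genotype was followed. Peak lists hold no expression values, so the cell type could not be checked against markers. The lists held 31421 HCF1, 17662 BAP1-FLAG and 10337 OGT peaks. Their read depths are unknown. With 1 library per protein there is no replicate error and no test. Intervals are 95% intervals for counting error, exact (Clopper-Pearson) for shares and from order statistics for medians. Neighbouring peaks are not independent, so these intervals are too narrow as a guide to the spread between libraries.

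HCF1 (host cell factor 1) does not bind DNA by itself as far as is known. It is brought to promoters by transcription factors and serves there as a platform for chromatin-modifying enzymes. BAP1 is a deubiquitinase that removes ubiquitin from histone H2A, is a tumour suppressor, and binds HCF1 through a short HCF1-binding motif. OGT attaches O-GlcNAc to many nuclear proteins, and HCF1 is both its substrate and the protein it cleaves during maturation. A called peak is a stretch of genome in which immunoprecipitated fragments exceeded the background, and its edges depend on fragment length, read depth and the caller, so a gap between 2 peaks is a stretch where no excess was called. No genome or annotation of the files' build, mm9, was used here. Regions are therefore named by position, and no gene or sequence is given.

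The gap to the shared peak is the value the rule used, and its distribution within the 1 kb allowed is a description. The median gap was 327 bp (interval 308 to 356 bp), with quartiles of 135 and 622 bp. Gaps of 1 to 100 bp were found for 462 of the 2308 flanking peaks, those of 101 to 200 bp for 335 (14.5%), and those of 901 to 1000 bp for 134 (5.81%). The number thus fell with distance over most of the window. In 57 cases (2.47%) the gap was 10 bp or less, and in 712 (30.8%, interval 29.0 to 32.8%) it was shorter than 175 bp, the lower limit of the gel selection of adaptor-ligated fragments. That size includes the adaptors, so it is not the lower limit of the genomic DNA in a fragment. Beyond the window the decline went on more slowly. There were 1067 unshared HCF1 peaks between 1 and 2 kb from the nearest shared peak, 729 between 2 and 3 kb, 600 between 3 and 4 kb and 540 between 4 and 5 kb. Closeness was not particular to unshared peaks: against 2308 unshared peaks within 1 kb and 1067 between 1 and 2 kb, there were 5701 and 764 shared peaks at these distances from another shared peak.

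The limit of 1 kb cut through a continuous distribution. The 3 members farthest from their shared peak all had a gap of 1000 bp, with scores of 135.27 on chromosome 2 from 166553545 to 166554133, 108.21 on chromosome 19 from 11600281 to 11601092, and 103.86 on chromosome 2 from 61421742 to 61422565. The 3 unshared peaks just outside had a gap of 1002 bp and scores of 87.08 on chromosome 8 from 73418576 to 73419249, 52.74 on chromosome 11 from 69731068 to 69731611, and 51.85 on chromosome 14 from 33600740 to 33601199.

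**Figure D1:**
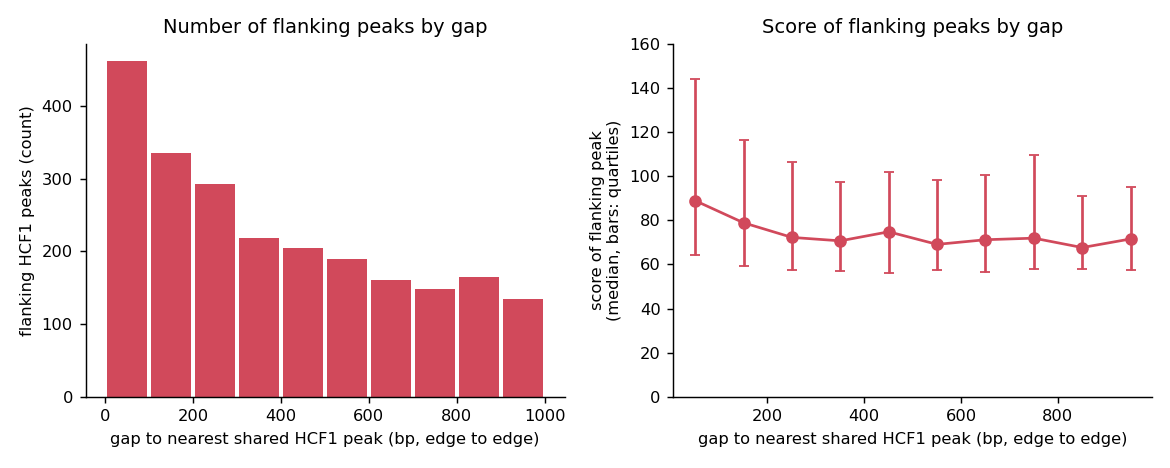
Left, number of flanking HCF1 peaks in bins of 100 bp of the gap to the nearest shared HCF1 peak; right, median score of the flanking peaks in the same bins, with bars for the quartiles. Counts went from 462 in the nearest bin to 134 in the farthest, and the median score was 88.95 in the nearest bin and between 67.68 and 78.92 in the others.

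Both sides of the shared peaks held flanking peaks in about equal number. Flanking peaks lay at the lower-coordinate side of their shared peak in 1157 cases (50.1%) and at the higher-coordinate side in 1151. Gene strand was not used, so upstream and downstream cannot be read from this. Most stood by themselves: 1746 (75.6%) had a shared peak within 1 kb on one side only and no other unshared HCF1 peak within 1 kb. Another unshared HCF1 peak was within 1 kb for 450 (19.5%), and 127 (5.50%) lay between 2 shared peaks that were both within 1 kb. A BAP1-FLAG or OGT peak within 1 kb on the side away from the shared peak was found for 161 (6.98%).

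Flanking peaks had low scores. The score is 1 number per peak whose definition the sources used here do not state; the peak caller usually writes a multiple of the negative logarithm of a p-value, so that a higher score is a surer call. No peak in the HCF1 list scored below 50. The median score was 74.96 (interval 73.22 to 76.89) for flanking peaks and 192.22 (188.14 to 196.2) for shared peaks. A score of at least 100 was reached by 689 flanking peaks (29.9%) and by 12412 shared peaks (73.9%). Among the deciles of score of all autosomal HCF1 peaks, the lowest 5 deciles each held between 322 and 347 flanking peaks, the eighth held 116, and the highest held 8. Shared peaks made up 18.4% of the lowest decile, 80.1% of the eighth and 96.3% of the highest. Unshared peaks of any kind were thus scarce at high scores, and the low counts there are not particular to flanking peaks. The median flanking peak stood at percentile 34.2 of the autosomal HCF1 list.

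Flanking peaks scored somewhat above the unshared peaks that stood apart. The median score was 74.96 for the flanking peaks and 65.42 (interval 64.94 to 66.11) for the 9050 unshared HCF1 peaks with no HCF1 peak of any kind within 1 kb. It was higher still, at 84.40 (81.65 to 87.06), for a second unshared class, the 2753 peaks within 1 kb of another unshared peak but of no shared one. Among unshared peaks, having a close HCF1 neighbour thus went with a higher score whether or not that neighbour was shared. Shared peaks went the other way: those within 1 kb of another shared peak had a median score of 155.97, against 170.7 to 229.4 at greater distances. The order of the unshared classes was the same for width. Flanking peaks had a median width of 579 bp (566 to 591 bp), against 624 bp for the unshared peaks beside unshared ones, 496 bp for those apart and 1022 bp for shared peaks. A wider HCF1 peak has more bases on which another peak can fall. The rule itself thus favours wider peaks as shared and narrower ones as unshared. How far this bears on the widths, or on the scores, was not tested. Score and width are linked: across the 2308 flanking peaks of this 1 library their Spearman rho was 0.70, given as a description. Beyond the window the score of unshared peaks changed little with distance. Those between 1 and 2 kb from the nearest shared peak had a median score of 69.49, and those over 50 kb away had one of 67.92.

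**Figure D2:**
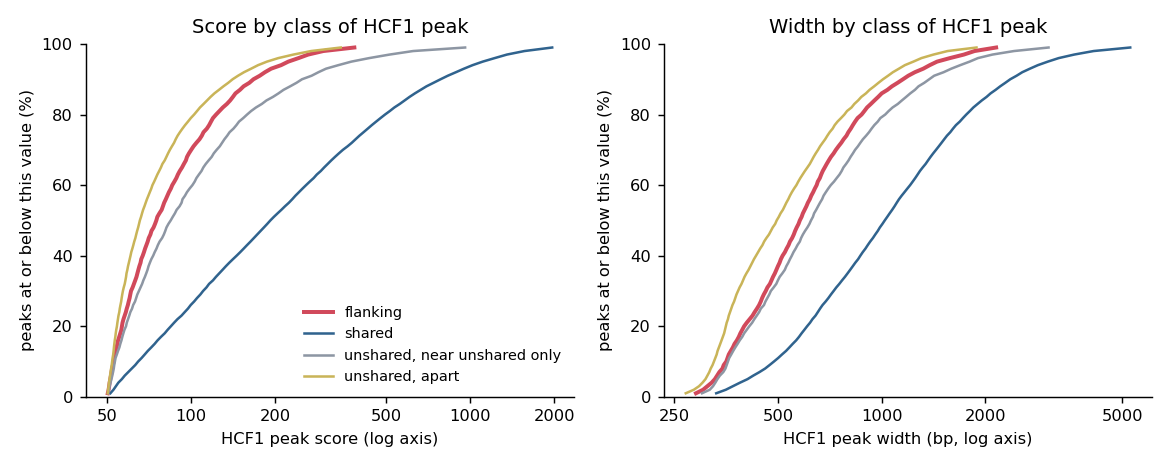
Cumulative share of HCF1 peaks on chromosomes 1 to 19 at or below a given score (left) or width in bp (right), both on log axes, for 2308 flanking, 16801 shared, 2753 unshared peaks near unshared peaks only and 9050 unshared peaks apart. The curve of the flanking peaks lies between those of the unshared classes over most of its length and far to the left of that of the shared peaks, with medians of 74.96 and 192.22 for score and 579 and 1022 bp for width.

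Next to their own shared neighbours the flanking peaks were mostly the lesser of the pair. Of the 2308, 2051 (88.9%, interval 87.5 to 90.1%) scored below the nearest shared peak, 257 (11.1%) scored above it, and none had an equal score. The classes differ in score without regard to pairing. The median flanking score of 74.96 lay between percentiles 15 and 16 of all shared peaks, which were 73.9 and 75.72. A score below that of a shared peak was thus usual for a flanking peak, and not particular to neighbours. The median ratio of the flanking to the shared score was 0.299 (interval 0.280 to 0.314), with quartiles of 0.138 and 0.594. The nearest shared peaks had a median score of 281.83, and the flanking peak was narrower in 1990 pairs (86.2%). Since the rule favours wider peaks as shared, it pushes this last share in the direction seen. The scores within a pair were only loosely linked, with a Spearman rho of 0.12 across the 2308 pairs. A pair comes from one library and one stretch of genome, and some shared peaks enter more than once, so this too is a description. With the score of the BAP1-FLAG peak on the shared neighbour rho was 0.00 over 1809 pairs, and with that of the OGT peak 0.05 over 1436 pairs.

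The 257 flanking peaks that outscored their neighbour are described apart; that choice fixes the direction of the scores that follow. Their own median score was 127.46 and that of the shared peaks beside them 76.79, while the remaining 2051 had medians of 71.39 and 323.08. They were wider than the remaining flanking peaks, with a median of 760 bp against 563 bp. Their median gap, 362 bp, was close to the 323 bp of the others.

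**Figure D3:**
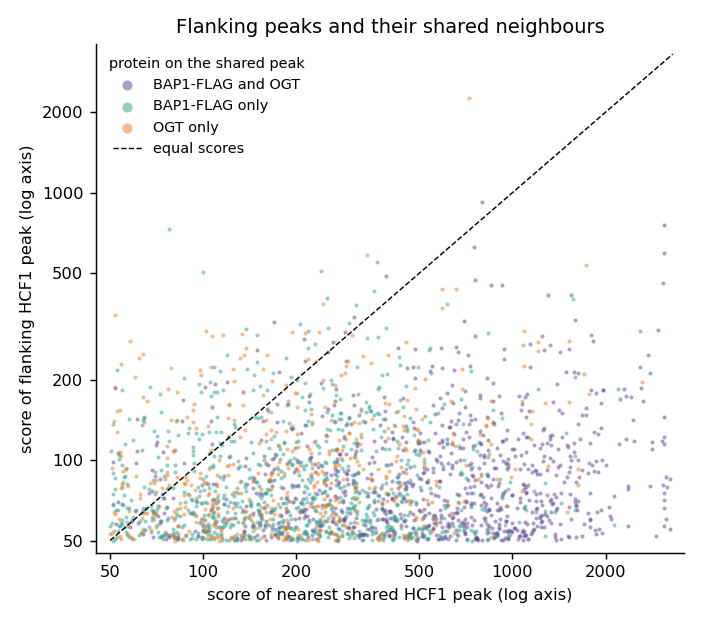
Score of each of the 2308 flanking HCF1 peaks against the score of its nearest shared HCF1 peak, both on log axes, coloured by the protein whose peak overlaps the shared one; the dashed line marks equal scores. Below the line lie 2051 points, and those with both BAP1-FLAG and OGT on the shared peak reach farthest to the right.

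Of the 2308 flanking peaks, 23 scored at least 400, and the 10 highest differed in what lay around them. The highest score, 2257.97, belonged to a peak of 4703 bp on chromosome 1 from 140734943 to 140739645. It lay 8 bp from a shared peak of 1140 bp that scored 724.44 and was shared through an OGT peak of score 56.32. The nearest BAP1-FLAG peak was 119 kb away. Here the stronger and wider HCF1 peak was the unshared one, and 1 weak OGT peak made the site shared. The next, on chromosome 7 from 19589019 to 19590276, scored 922.11 and lay 167 bp from a shared peak of score 800.18 with both proteins, so the 2 HCF1 peaks were of like strength.

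The third and the sixth by score lay beside 2 of the strongest shared peaks. On chromosome 2 from 166890096 to 166893321 a flanking peak of 3226 bp scored 756.78 and lay 32 bp from a shared peak of 10074 bp that scored 3100.0. On chromosome 13 from 56717717 to 56720602 one of 2886 bp scored 596.45 and lay 19 bp from a shared peak of 7277 bp that also scored 3100.0. The nearest OGT peak lay 3 bp from this chromosome 13 peak, and the nearest BAP1-FLAG peak 1961 bp from it. In both places only a short gap divided 2 wide HCF1 peaks. The value 3100 recurred: it was also the highest score in the OGT list and in both other classes of unshared HCF1 peak. The HCF1 list itself reached 3226.07. Whether 3100 is a value set by the peak caller was not tested.

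Further peaks of this group had differing neighbours. The flanking peak on chromosome 4 from 128404929 to 128407534 scored 732.66 beside a shared peak of 77.59, a ratio of 9.44 that was the highest of all members. A BAP1-FLAG peak of score 50.59, near the lowest in its list, made that neighbour shared, and the BAP1-FLAG peak nearest to the flanking peak was 40 bp away. On chromosome 2 from 4481602 to 4483693 the score was 627.97, beside a shared peak of 749.55 with both proteins. On chromosome 13 from 20886758 to 20890892 a peak of 4135 bp scored 582.87 beside a shared peak of 337.82 with an OGT peak of 52.05, and BAP1-FLAG was 361 kb away.

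The last 3 of the 10 highest scored between 509.97 and 552.11. The one on chromosome 2 from 56966230 to 56968245 scored 552.11, lay 657 bp from its shared peak and had its nearest OGT peak 1044 kb away. On chromosome 5 from 58106243 to 58108094 the score was 536.69, and the nearest BAP1-FLAG peak was 3716 kb away while an OGT peak lay 244 bp away. On the same chromosome, from 34163385 to 34165551, the score was 509.97 and a BAP1-FLAG peak lay 31 bp away. Of these 10 peaks, 3 thus stood at sites with OGT and with no BAP1-FLAG peak within 100 kb.

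After the chromosome 4 peak, the ratios to the shared neighbour came next at 6.74, 5.07, 4.82 and 4.23. The first of these was on chromosome 14 from 31943734 to 31945056, where the flanking peak scored 350.02 against 51.92 for its neighbour. The second, on chromosome 13 from 112597128 to 112599173, scored 504.53 against 99.53. The third, on chromosome 5 from 34880049 to 34881323, scored 279.01 and lay 2 bp from a shared peak of 57.86. The fourth, on chromosome 10 from 79527207 to 79528411, scored 229.72 against 54.31. All but the second of these 4 had an OGT peak, and no BAP1-FLAG peak, on the shared neighbour. Over all flanking peaks such neighbours made up 21.6%, and 4 peaks picked by rank are too few to set against that share.

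At the deposited peak widths, shared peaks that carried OGT without BAP1 had a flanking peak more often than the other types of shared peak did. With BAP1-FLAG and OGT peaks set to one width, the overall excess over peaks with both proteins was 0.992 percentage points, against 7.65 at the deposited widths, while an excess over BAP1-only peaks remained. The nearest shared peak overlapped both proteins for 937 flanking peaks (40.6%, interval 38.6 to 42.6%), BAP1-FLAG only for 872 (37.8%, 35.8 to 39.8%) and OGT only for 499 (21.6%, 19.96 to 23.36%). Among all 16801 shared HCF1 peaks these types made up 37.1%, 50.7% and 12.2%. Seen from the shared peaks, a flanking peak was nearest to 444 of the 2049 with OGT only (21.7%, interval 19.9 to 23.5%), 874 of the 6234 with both (14.0%, 13.2 to 14.9%) and 825 of the 8518 with BAP1-FLAG only (9.69%, 9.07 to 10.3%). Over all types, 2143 shared peaks (12.8%, 12.3 to 13.3%) were the nearest shared peak to a flanking peak. Throughout, a shared peak is counted as having a flanking peak, or a flanking peak beside it, only in that case. For the 127 flanking peaks with a shared peak within 1 kb on both sides, only the nearer one was counted. The share with any flanking peak within 1 kb was not computed.

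The share was higher for OGT-only peaks in every quintile of HCF1 score. In the lowest quintile of shared peaks by score, 12.7% of the OGT-only peaks, 7.93% of those with both proteins and 5.36% of the BAP1-only peaks had a flanking peak. In the third quintile the shares were 25.7%, 11.5% and 11.2%, and in the highest quintile 40.6% (interval 32.4 to 49.1%), 19.4% (17.9 to 21.0%) and 14.5% (12.1 to 17.3%). That highest quintile held 143 OGT-only peaks, and these were also wide, with a median of 3257 bp against 2281 bp with both proteins and 1811 bp with BAP1-FLAG only. Whether a flanking peak was found thus moved with the score of the shared peak as well, from 7.05% of all shared peaks in the lowest quintile to 19.2% in the highest. It also moved with width, from 7.56% of shared peaks of up to 608 bp to 20.3% of those of 1763 bp or more.

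OGT-only shared peaks had an HCF1 neighbour about as often as peaks with both proteins and more often than BAP1-only peaks, and their neighbours were more often unshared than those of either. An adjacent HCF1 peak within 1 kb, of any kind, was found for 49.5% (interval 47.3 to 51.7%) of OGT-only peaks, 46.9% (45.6 to 48.1%) of peaks with both proteins and 39.4% (38.4 to 40.5%) of BAP1-only peaks. Of those adjacent peaks, 38.7% (36.0 to 41.4%) were unshared beside OGT-only peaks, 27.5% (26.0 to 29.0%) beside peaks with both and 22.8% (21.5 to 24.2%) beside BAP1-only peaks. The median width was 1243 bp in the BAP1-FLAG list and 912 bp in the OGT list. The shares were recomputed, after the data were seen, with each BAP1-FLAG and OGT peak set to 1000 bp around its centre. This changed the sets themselves, to 2960 flanking and 16054 shared peaks. It did not make the lists alike in number, which stayed at 17389 BAP1-FLAG and 10236 OGT peaks on chromosomes 1 to 19. Whether the larger BAP1-FLAG list bears on the excess of OGT-only peaks was not tested. A flanking peak was then beside 21.1% (interval 19.4 to 22.8%) of OGT-only peaks, 20.1% (19.1 to 21.1%) of peaks with both and 12.9% (12.1 to 13.6%) of BAP1-only peaks. The intervals of OGT-only peaks and peaks with both overlapped. Within quintiles of score OGT-only peaks still had the highest share, from 12.7% in the lowest, where peaks with both had 9.77% and BAP1-only peaks 6.39%, to 41.7% in the highest, against 27.04% and 19.8%. In the lowest quintile the intervals of OGT-only peaks (10.5 to 15.3%) and peaks with both (7.16 to 12.9%) overlapped. They also overlapped in the second (13.7 to 19.6% and 9.78 to 14.8%), but not in the higher ones. OGT-only peaks exceeded BAP1-only peaks by 8.19 points in all, against 12.0 points at the deposited widths. At the deposited widths, the flanking peaks themselves scored highest beside OGT-only peaks, with a median of 83.0 (interval 79.52 to 87.81), against 75.3 (72.37 to 79.42) beside peaks with both and 70.17 (68.14 to 73.38) beside BAP1-only peaks. Their median widths were 676 bp (636 to 717 bp), 588 bp (570 to 607 bp) and 529.5 bp (509 to 554 bp).

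**Figure D4:**
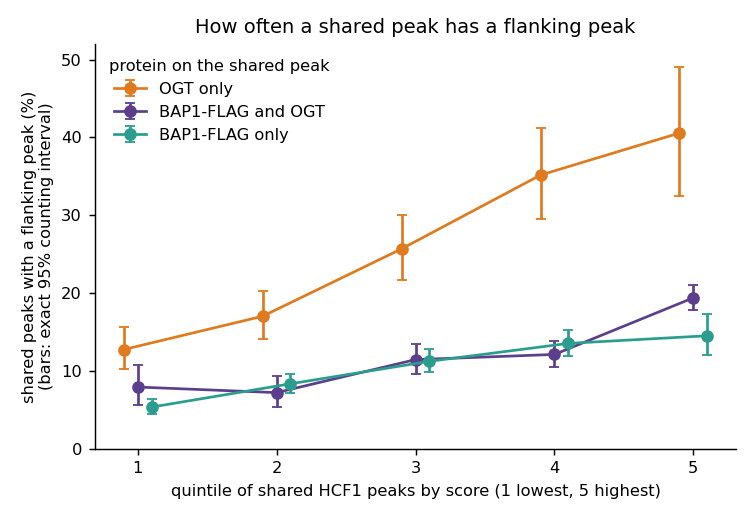
Share of shared HCF1 peaks that were the nearest shared peak to a flanking peak, in quintiles of the shared peaks by HCF1 score. Peaks with OGT only, with BAP1-FLAG and OGT, and with BAP1-FLAG only are shown apart. Bars are exact 95% counting intervals. The OGT-only peaks run from 12.7% to 40.6% and lie above the other types in each quintile, with an interval that overlaps that of peaks with both proteins in the lowest quintile only.

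The distance to BAP1-FLAG and OGT peaks is bounded by the rule, which allows no overlap and places a shared peak within 1 kb, and is given as a description. The nearest peak of either protein was at a median of 400.5 bp (interval 380 to 421 bp) from the flanking peak, within 100 bp for 329 (14.3%), within 200 bp for 654 (28.3%) and within 1 kb for 2053 (89.0%). In 1056 cases (45.8%) it was nearer to the flanking peak than the shared HCF1 peak was. BAP1-FLAG alone was within 1 kb of 1603 flanking peaks (69.5%) and OGT of 1134 (49.1%). With 2 members there was no base between: the flanking peak on chromosome 15 from 58045511 to 58045917, which scored 91.86, and the one on chromosome 1 from 94831753 to 94832346, which scored 73.56, each touched a BAP1-FLAG peak. These 2 are members only with starts read as counted from 0. With starts counted from 1 a touching pair shares 1 base, and the rule then gave 2306 members. On chromosome 16 from 97763402 to 97765353 a flanking peak of score 166.16 lay 1 bp from an OGT peak.

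The place of the other protein on the shared peak is also bound by the rule, since a BAP1-FLAG or OGT peak that ran on over the flanking peak would have removed it from the set. Counting distance toward the flanking peak as positive, the centre of the BAP1-FLAG peak was at a median of -109 bp (interval -127 to -93 bp) from the centre of the shared HCF1 peak, that is, away from the flanking peak, and it lay on that far side in 1241 of 1809 cases (68.6%). For OGT the median was -71.5 bp (-89 to -55.5 bp), with 865 of 1436 (60.2%) on the far side. BAP1-FLAG ran past the facing edge of the shared peak in 801 cases (44.3%) and past the far edge in 1231 (68.0%), OGT in 345 (24.0%) and 571 (39.8%). The rule itself pushes these values in the direction seen.

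Pairs of a shared and an unshared peak were fewer than pairs of 2 shared peaks. Among 7389 pairs of adjacent HCF1 peaks at most 1 kb apart, 2356 (31.9%) joined a shared and an unshared peak, 3172 (42.9%) joined 2 shared peaks and 1861 (25.2%) joined 2 unshared peaks. Among 23504 adjacent pairs farther apart these shares were 47.2%, 29.3% and 23.5%. In 2409 of the 3172 close pairs of shared peaks (75.9%, interval 74.4 to 77.4%) one and the same BAP1-FLAG or OGT peak overlapped both HCF1 peaks, most often a BAP1-FLAG peak, which did so in 2090. At like scores, HCF1 peaks close to another shared peak were less often unshared than those farther away. With scores from 50 to below 75, 1155 of 2308 peaks within 1 kb of another shared peak were unshared, 50.04% (48.0 to 52.1%; this total equals the number of flanking peaks by coincidence), against 82.2% (81.4 to 83.0%) of 8266 peaks farther away. From 200 to below 400 the shares were 10.1% and 18.9%, and at 400 or more 1.84% and 5.41%.

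Most flanking peaks belonged to short runs. Joining all autosomal HCF1 peaks across gaps of at most 1 kb gave 2027 runs with at least 1 flanking peak, with a median span of 2976 bp. Of these, 1187 (58.6%) were simple pairs of 1 flanking and 1 shared peak, and 485 (23.9%) held 3 HCF1 peaks. Of the 2143 shared peaks that were nearest to a flanking peak, 1986 had 1, 149 had 2 and 8 had 3. Where there were 2 or more, they lay on both sides of the shared peak in 101 of 157 cases (64.3%, interval 56.3 to 71.8%). The limit of 1 kb holds for each side apart, and flanking peaks on the same side have to share it. The rule itself thus favours places on both sides.

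Of the 8 shared peaks with 3 flanking peaks, the 5 with the highest scores are given here, and the 3 weaker ones are not described. The highest-scoring, on chromosome 14 from 51563395 to 51565606, scored 1331.21 and carried BAP1-FLAG and OGT, and its flanking peaks scored 113.92 at the lower side and 63.98 and 71.63 at the higher side. On chromosome 7 from 148201156 to 148203944 the shared peak scored 784.68, with flanking peaks of 175.84 and 104.66 at the lower side and 74.08 at the higher side. The shared peak on chromosome 2 from 9800418 to 9801804 scored 542.47 and was shared through a BAP1-FLAG peak of only 51.9. Its flanking peaks scored 262.07, 138.75 and 53.31. On chromosome 17 from 47747706 to 47749172 the shared peak scored 538.71, and its flanking peaks scored 107.03, 57.12 and 63.25. The one on chromosome 18 from 60540914 to 60542502 scored 275.5 and carried an OGT peak of 65.01 without BAP1-FLAG, with flanking peaks of 69.5, 96.24 and 119.15. In each of these 5 places, chosen for the high score of the shared peak, every flanking peak scored below the shared peak between them.

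**Figure D5:**
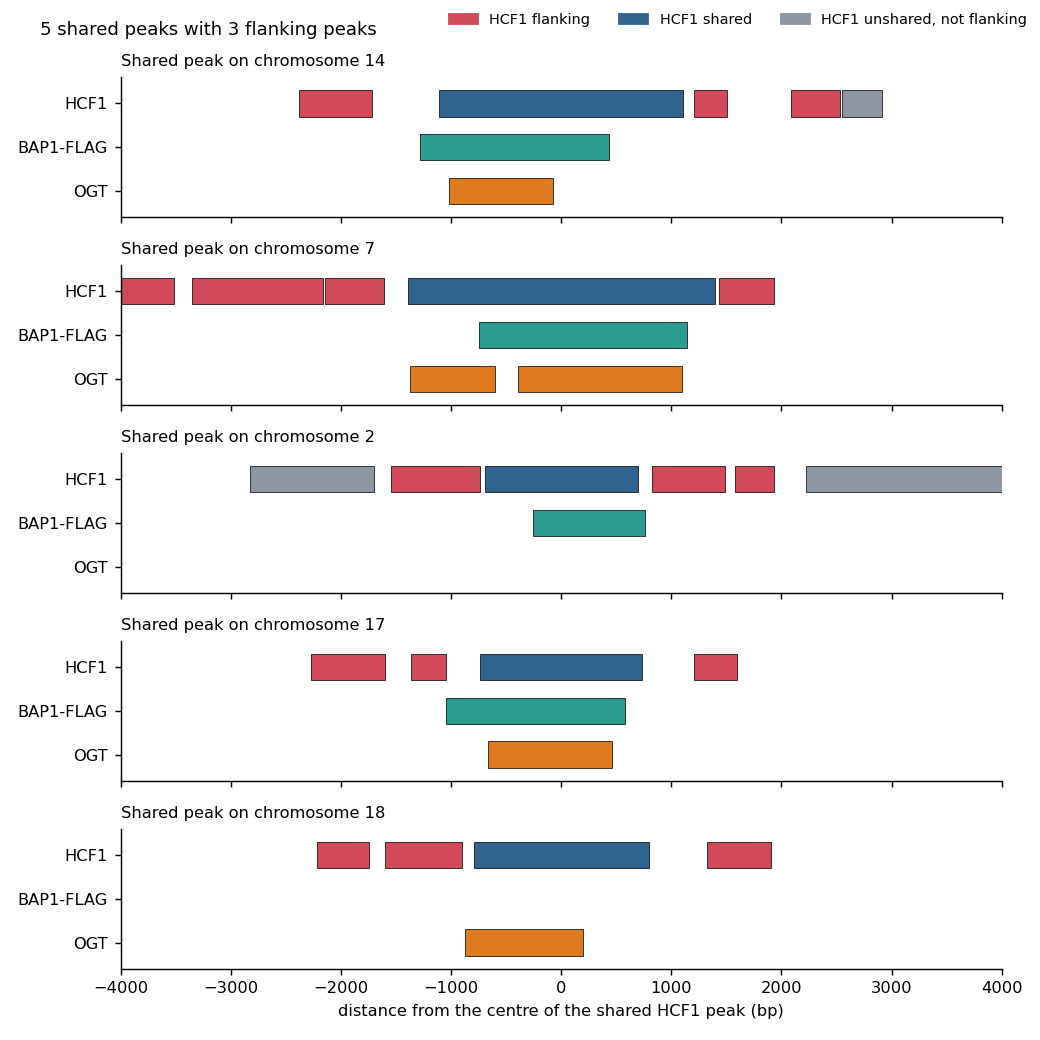
Peaks of the 3 lists around the 5 highest-scoring shared HCF1 peaks with 3 flanking peaks, by distance in bp from the centre of the shared peak; each bar spans a peak from start to end. Flanking peaks lie on both sides in all 5, and the BAP1-FLAG and OGT peaks end before them; the chromosome 7 panel also shows part of a flanking peak that is nearest to another shared peak.

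One long run stood out, and was chosen for description after its values were seen. On chromosome 11 from 119250857 to 119336395 it spanned 85539 bp and held 40 HCF1 peaks, of which 10 were flanking and 28 shared. The flanking peaks there scored from 113.15 to 289.92 with a median of 153.01, and lay 15 to 578 bp from a shared peak. The shared peaks scored from 91.0 to 3100.0 with a median of 306.32. The stretch held 30 OGT peaks and 2 BAP1-FLAG peaks, the reverse of the order of the whole lists, and the highest BAP1-FLAG score in it was 259.14. The run next in number of flanking peaks, on chromosome 19 from 41392859 to 41421632, held 6 flanking and 4 shared peaks.

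Flanking peaks were found on every autosome, in shares that varied. They made up between 5.30% of HCF1 peaks (interval 4.06 to 6.78%), on chromosome 14, and 8.85%, on chromosomes 8 (7.51 to 10.4%) and 19 (7.33 to 10.6%). The share of shared peaks that had one ran from 9.18% (7.01 to 11.8%) on chromosome 14 to 15.2% (12.5 to 18.2%) on chromosome 19, and the median score of flanking peaks from 64.05 on chromosome 16 to 83.77 on chromosome 5. Of 1876 windows of 1 Mb with an HCF1 peak, 907 held a flanking peak, with a median of 2 in those. The windows with the most were on chromosome 10 from 79000001 to 80000000, with 20 flanking among 114 HCF1 peaks, and on chromosome 17 from 34000001 to 35000000, with 19 among 120. Both were also dense in shared peaks, with 71 and 66.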

How the data were processed

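ChIP and input DNA of 4 samples was sequenced. Per the labels' protocols, adaptor-ligated fragments of 175 to 225 bp were cut from a gel and amplified for 18 cycles. GSNAP, MACS 1.4 and build mm9 are named, per the submitters' processing notes, with no settings. The authors deposited 1 peak list per ChIP library, each peak with a score whose definition is not stated; no list of the input was used here. Without read totals the depth is unknown. PCR copies are not independent molecules, and intervals cover counting error only.

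Deposited starts were read as counted from 0, and positions are printed counted from 1. Peaks overlapped when they shared at least 1 bp. The rule was run in Python 3.11.15 with numpy 2.4.6, pandas 2.3.3 and scipy 1.17.1, tested on simulated peaks, and checked with bedtools 2.31.1, which gave the same 2308 members. Regions were named by fixed ranks: the 10 highest scores, the 5 highest score ratios, the 5 shared peaks with the most flanking peaks, and 3 peaks each at the distance limit, just beyond it and nearest to BAP1-FLAG or OGT. Members, lists and alternatives were chosen with earlier results of these data known. The reference tables supplied are of another build, so genes, promoters and sequences were not used.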

Additional observations from a re-analysis of the deposited data

Results flagged for a closer look

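Outside chromosomes 1 to 19, which the comparisons above do not use, flanking peaks were also called. Chromosome X held 29 flanking peaks among 455 HCF1 peaks, 6.37% (exact 95% interval 4.31 to 9.03%), with a median score of 66.87 and a highest score of 385.05. Chromosome Y and unplaced sequence held 4 flanking peaks among 54 HCF1 peaks.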

How the results depend on the processing

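Of 64 values, 8 results under 8 alternatives, 41 stayed within the interval of the main value or, for counts, within 1.5 times it. The shares of shared peaks given here count those that were the nearest shared peak to a flanking peak. With a limit of 500 bp there were 1512 flanking peaks, 4.89% of HCF1 peaks and beside 8.71% of shared peaks. Their medians were 187 bp for the gap, 78.78 for the score and 600.5 bp for the width. With a limit of 2 kb they made up 10.9% of HCF1 peaks, beside 17.2% of shared peaks, with a median gap of 595 bp and a median score of 73.09, and 87.4% scored below their shared peak. With a score of at least 100 in all lists there were 731 (4.54%, beside 7.39% of shared peaks), with medians of 244 bp, 154.26 and 970 bp, of which 86.9% scored below their shared peak and 35.0% lay nearest to one with both proteins. Flanking peaks at least 200 bp clear of BAP1-FLAG and OGT made up 5.36%, beside 9.31% of shared peaks, with a median gap of 448.5 bp. Without peaks over 5 kb, 38.3% lay nearest to a shared peak with both proteins. These shifts follow from which peaks each alternative admits. Starts counted from 1, all chromosomes and an overlap of at least 100 bp moved none of the 8. The excess of OGT-only over BAP1-only shared peaks with a flanking peak, tried under these and 1 more alternative after the data were seen, was positive throughout; it was 12.0 percentage points, 8.95 with 500 bp, 8.94 with scores of 100 or more and 8.19 with BAP1-FLAG and OGT peaks set to one width. At one width the excess of OGT-only peaks over peaks with both was 0.992 points, against 7.65 at the deposited widths. Depth is unknown, so the lack of a BAP1-FLAG or OGT call on a flanking peak may be a matter of detection. No paired analysis was possible because there was 1 library of each kind.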
